A study of Homo sapiens with 2 samples.

Results

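The genes described here are 10 markers of liver progenitor cells and of cancer stem cells, EPCAM, KRT19, SOX9, SOX4, PROM1, CD44, CD24, LGR5, NOTCH2 and SPP1, taken by symbol from a list. Of these, 9 were found among the 11976 genes of both expression tables, and CD24, a small cell surface glycoprotein, is in neither table and was not analysed here. Messenger RNA of Huh7, a human cell line from a hepatocellular carcinoma, was sequenced in 2 libraries, 1 of cells transfected with an shRNA against USP22 and 1 of cells that received a control shRNA. Both libraries are of the same line, and the labels give no other treatment, no time after transfection and no clone. USP22 is the deubiquitinating enzyme of SAGA, a complex that acts on chromatin, and the comparison addresses how the markers stand after its depletion. The values carry no unit in the tables and were read as FPKM (fragments per kilobase of transcript, scaled to the reads of the library), which is an assumption. The depth is unknown, and each group has 1 library with no replicate error, so "higher" and "lower" describe these 2 libraries only and no p-value is given.

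In the developing and injured liver, bipotent progenitor cells and bile duct cells share a set of transcripts that mature hepatocytes largely lack. Keratin 19, EPCAM and the transcription factor SOX9 belong to that ductal set, osteopontin (SPP1) is secreted by ductal and progenitor cells, and Notch signalling through NOTCH2 drives cells towards the bile duct fate. PROM1 (CD133), CD44, CD24 and LGR5 mark cells with tumour-initiating capacity in several cancers, and SOX4 is a transcription factor linked to progenitor states.

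USP22 (ENSG00000124422.11_2) was at 7.67 FPKM in the USP22 shRNA library, against 58.1 FPKM in the control, which agrees in direction with the label. The library sums were 218955 FPKM with USP22 shRNA and 244301 FPKM in the control. Of 12 hepatocyte markers 10 were in the tables, with a summed level of 1294 FPKM in the USP22 shRNA library and 2640 FPKM in the control. None of 8 endothelial markers was in the tables, and 3 of 10 blood cell markers were. Fewer cells that express a marker and less of its RNA per cell cannot be told apart in bulk RNA.

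The 9 markers fell into those that were lower and those that were higher with USP22 shRNA. KRT19, EPCAM and SOX9 were lower by less than 2-fold, and SOX4, PROM1, CD44, LGR5, NOTCH2 and SPP1 were higher. The genes tied above to bile ducts thus lay on both sides of 0, with NOTCH2 and SPP1 among the higher ones. With the trend over transcript GC content removed, KRT19 was at 0.03, SPP1 at -0.04 and NOTCH2 at 0.43. EPCAM was then at -0.59 and SOX9 at -0.36. Ratios were computed on the log2 scale after 1 FPKM was added to both values, a pseudocount that shrinks the ratios of low genes, and a size of at least 1 was counted as at least 2-fold. All 9 averaged 1 FPKM or more across the libraries, the limit used for counting. CD44, at 0.813 FPKM in the control, was past that limit only through its value with USP22 shRNA. By the 2-fold rule 3 of the 9 (PROM1, CD44 and SPP1) were higher, beside 24.1% of 10195 genes past the same limit. No marker was lower by that rule, beside 12.2% of those genes. The median log2 ratio of the 9 was 0.69, against 0.10 over all 10195 genes, and 6 of the 9 were above 0, beside 53.5% of all genes. With so few genes, a share of 3 in 9 is not read as different from the background.

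Genes whose transcripts were poor in GC had the higher log2 ratios. The Spearman rho of ratio and GC content was -0.70 for 10134 genes and -0.78 for the 9 markers, a description over genes that share the same 2 libraries. Each ratio is therefore also given with that trend removed by a smooth curve. On that scale no marker was higher by the 2-fold rule, beside 8.45% of genes, and none was lower, beside 8.92%. The median over the 9 was then 0.03.

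**Figure D1:**
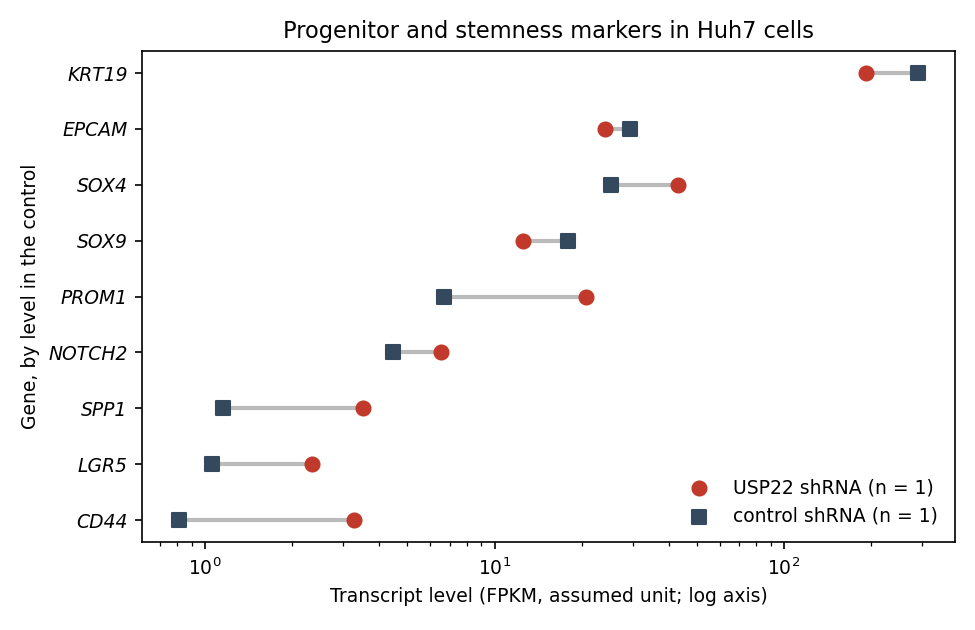
Level of each of the 9 markers in FPKM (horizontal log axis) in the USP22 shRNA library (circles) and the control library (squares), 1 library each, with genes ordered by their level in the control. KRT19 lies highest at 192 FPKM with USP22 shRNA and 290 FPKM in the control. SOX4, PROM1, NOTCH2, SPP1, LGR5 and CD44 lie further to the right in the USP22 shRNA library than in the control.

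KRT19 (ENSG00000171345.13_2, chromosome 17), an intermediate filament protein of simple and ductal epithelium, was at 192 FPKM in the USP22 shRNA library and at 290 FPKM in the control. It was the most abundant of the markers in both libraries, above 99.1% of all listed genes with USP22 shRNA and 99.3% in the control. Its log2 ratio of -0.60 was near the median of -0.56 among the 1013 genes of like GC content (58.8% to 62.1%), and it was 0.03 with the GC trend removed. KRT19 made up 62.3% of the summed level of the 9 markers with USP22 shRNA and 77.0% in the control, so it decides the direction of that sum. The sum was 308 FPKM with USP22 shRNA and 377 FPKM in the control, while without KRT19 it was 116 FPKM with USP22 shRNA and 86.7 FPKM in the control.

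EPCAM (ENSG00000119888.10_2, chromosome 2), an epithelial cell adhesion molecule, was at 24.1 FPKM in the USP22 shRNA library and 29.3 FPKM in the control. Its log2 ratio was -0.27, and it was -0.59 with the GC trend removed, the lowest of the 9 on that scale. SOX9 (ENSG00000125398.5_2, chromosome 17), a transcription factor of bile duct development, was at 12.5 FPKM with USP22 shRNA and 17.9 FPKM in the control. The SOX9 log2 ratio of -0.48 was -0.36 with the GC trend removed. EPCAM and SOX9 were lower under every one of the 11 alternatives run, by less than 2-fold in each. KRT19 was lower under the alternatives other than the removal of GC or of GC and length trends, where its log2 ratios were 0.03 and 0.13.

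SOX4 (ENSG00000124766.6_3, chromosome 6), a transcription factor of the same family as SOX9, was at 43.0 FPKM in the USP22 shRNA library and 25.3 FPKM in the control. The 2 SOX factors thus stood on opposite sides of 0. Within a library, where scaling plays no part, the level of SOX4 was 3.44 times that of SOX9 with USP22 shRNA and 1.42 times in the control. Both transcripts have a like GC content, 50.7% for SOX4 and 51.0% for SOX9. The SOX4 log2 ratio was 0.74, and with the GC trend removed it was 0.84, the highest of the 9 on that scale. An annotated antisense transcript overlaps SOX4 exons on the opposite strand, and whether the quantification used strand is not stated in the labels.

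PROM1 (ENSG00000007062.11_3, chromosome 4), a pentaspan membrane glycoprotein of cell protrusions, had the highest log2 ratio of the 9 with a pseudocount of 1. Its level was 20.7 FPKM in the USP22 shRNA library and 6.68 FPKM in the control, 3.10-fold higher with USP22 shRNA. CD44 (ENSG00000026508.17_4, chromosome 11), the receptor for hyaluronan and a receptor for osteopontin, was at 3.27 FPKM with USP22 shRNA and 0.813 FPKM in the control, a plain ratio of 4.02 and the highest of the 9 on the plain scale. SPP1 (ENSG00000118785.13_3, chromosome 4), which encodes the secreted ligand osteopontin, was at 3.51 FPKM with USP22 shRNA and 1.15 FPKM in the control, a plain ratio of 3.06. These 3 genes passed the 2-fold rule, with log2 ratios of 1.5 for PROM1, 1.24 for CD44 and 1.07 for SPP1. CD44 and SPP1 are low, so their log2 ratios depend most on the pseudocount: with 5 in place of 1, CD44 was at 0.51 and SPP1 at 0.47, and PROM1 was at 1.14.

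All 3 have transcripts of low GC content, at 43.2% for PROM1, 45.3% for CD44 and 41.2% for SPP1. Without the GC trend their log2 ratios were 0.63 for PROM1, 0.67 for CD44 and -0.04 for SPP1. Among all 10134 genes these lay at percentile 81.7 for PROM1, 83.6 for CD44 and 47.9 for SPP1. The SPP1 ratio was thus close to that of other genes of its GC content: the median log2 ratio was 1.23 among the 1013 genes between 39.0% and 41.5%, of which 628 were at least 2-fold higher. The exons of PROM1 overlap those of FGFBP2 on the same strand, and those of CD44 overlap an antisense gene on the opposite strand. Neither neighbour is in the tables, and its part in the values was not tested.

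The promoter windows of the 3 markers that passed the 2-fold rule are shown to let their base composition be compared with that of their transcripts. They run from 250 bases before to 50 bases after the RefSeq transcript start (build GRCh38.p14, 5′ to 3′ on the gene's strand, whereas the submitters' processing notes name GRCh37), with each CG dinucleotide in capitals. Windows were found for 6 of the 10 markers (SOX4, PROM1, CD44, CD24, NOTCH2 and SPP1). For PROM1, which has 4 windows, the most upstream is shown, at chr4:16083974-16084273 on the minus strand. CD44 is at chr11:35138921-35139220 and SPP1 at chr4:87975464-87975763, both on the plus strand.
PROM1: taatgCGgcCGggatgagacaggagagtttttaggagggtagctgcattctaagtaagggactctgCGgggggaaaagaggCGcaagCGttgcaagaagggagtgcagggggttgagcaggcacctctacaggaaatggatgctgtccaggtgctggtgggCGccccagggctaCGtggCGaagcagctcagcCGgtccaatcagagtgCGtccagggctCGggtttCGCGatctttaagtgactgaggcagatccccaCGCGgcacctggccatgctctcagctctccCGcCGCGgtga
CD44: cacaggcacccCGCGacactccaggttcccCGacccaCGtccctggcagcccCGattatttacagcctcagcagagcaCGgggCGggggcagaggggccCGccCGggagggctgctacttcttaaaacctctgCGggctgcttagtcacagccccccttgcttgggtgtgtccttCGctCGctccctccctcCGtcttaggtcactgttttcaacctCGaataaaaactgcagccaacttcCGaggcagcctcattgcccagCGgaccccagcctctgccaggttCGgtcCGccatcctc
SPP1: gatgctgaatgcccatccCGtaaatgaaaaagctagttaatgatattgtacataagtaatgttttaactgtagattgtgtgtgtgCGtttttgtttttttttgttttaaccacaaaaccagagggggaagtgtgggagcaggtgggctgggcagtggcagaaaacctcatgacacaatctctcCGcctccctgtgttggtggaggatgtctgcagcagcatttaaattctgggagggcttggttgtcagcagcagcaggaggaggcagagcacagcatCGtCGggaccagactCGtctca

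The SPP1 window held 6 CG dinucleotides at 47.7% GC, fewer than the 18 of CD44 at 63.3% GC and the 18 of PROM1 at 60.7% GC. The further PROM1 windows held 32, 24 and 6, from the most upstream down. The median over 35116 windows of the same length was 14 CG dinucleotides and 58.7% GC. The 3 transcripts were therefore alike in low GC content, but their promoter windows were not. A search on both strands covered 4 motifs. The core TGGGAA of sites for the Notch effector RBPJ was in 24.0% of all windows. The core CTTTGA of sites for TCF/LEF, the factors of Wnt signalling, was in 12.9% of them. For SOX sites the core AACAAT was present in 10.1%. The TATA box TATAAA was present in 11.5%. None of the 3 windows shown held any of these letters, the SOX4 window held 1 match to the RBPJ core, and the NOTCH2 window held no match. The most downstream PROM1 window held 1 match to the TCF/LEF core, and 2 of the 3 CD24 windows held 1 RBPJ core each. A match or its lack describes the letters in the window and says nothing of binding.

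LGR5 (ENSG00000139292.12_3, chromosome 12), a receptor for R-spondins that raises Wnt signalling, was at 2.34 FPKM in the USP22 shRNA library and 1.06 FPKM in the control. Its plain ratio was 2.20, while the log2 ratio with the pseudocount was 0.69, so its place beyond 2-fold rests on the pseudocount. After GC correction the LGR5 log2 ratio was -0.09, and it was -0.14 with GC and length trends removed. An annotated antisense gene overlaps LGR5 exons on the opposite strand, and its part in the values was not tested. NOTCH2 (ENSG00000134250.19_3, chromosome 1), a Notch receptor, was at 6.52 FPKM with USP22 shRNA and 4.45 FPKM in the control. Its log2 ratio of 0.47 was 0.43 with the GC trend removed. NOTCH2NL, a partial copy of NOTCH2 of nearly identical sequence, is listed at 4.43 FPKM with USP22 shRNA and 1.54 FPKM in the control. Reads of these 2 genes can be split between them by the quantification, so the NOTCH2 value is uncertain.

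**Figure D2:**
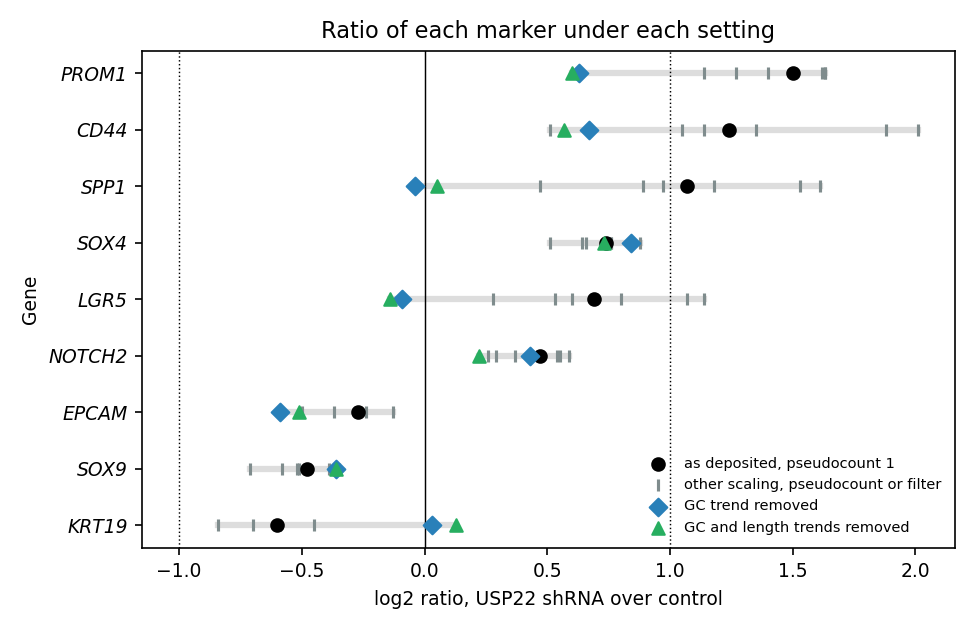
Log2 ratio of USP22 shRNA over control (horizontal axis) for each marker as deposited with a pseudocount of 1 (black circles), with the GC trend removed (blue diamonds), with GC and length trends removed (green triangles) and under the other settings (grey ticks), with dotted lines at 2-fold. SOX4, PROM1, CD44 and NOTCH2 lie above 0 and EPCAM and SOX9 below 0 throughout, while KRT19, SPP1 and LGR5 cross 0 when the GC trend is removed.

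The order of the levels differed at 3 places between the libraries. In the USP22 shRNA library it was KRT19, SOX4, EPCAM, PROM1, SOX9, NOTCH2, SPP1, CD44 and LGR5, and in the control it was KRT19, EPCAM, SOX4, SOX9, PROM1, NOTCH2, SPP1, LGR5 and CD44. The level of EPCAM was 0.560 times that of SOX4 with USP22 shRNA and 1.16 times in the control. PROM1 was at 1.65 times the level of SOX9 with USP22 shRNA and at 0.374 times in the control. CD44 was at 1.40 times LGR5 with USP22 shRNA and at 0.765 times in the control, although both are low. The GC trend does not cancel between genes of unlike GC content, such as PROM1 at 43.2% and SOX9 at 51.0%. With it removed the log2 ratios were 0.63 for PROM1 and -0.36 for SOX9, closer together than as deposited. Those of EPCAM and SOX4 were further apart, at -0.59 and 0.84, as were those of CD44 and LGR5, at 0.67 and -0.09. The ligand SPP1 and its receptor CD44 kept close levels, with SPP1 at 1.07 times CD44 with USP22 shRNA and 1.41 times in the control. With no replicate, none of the neighbours in this order can be said to differ beyond a spread.

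**Figure D3:**
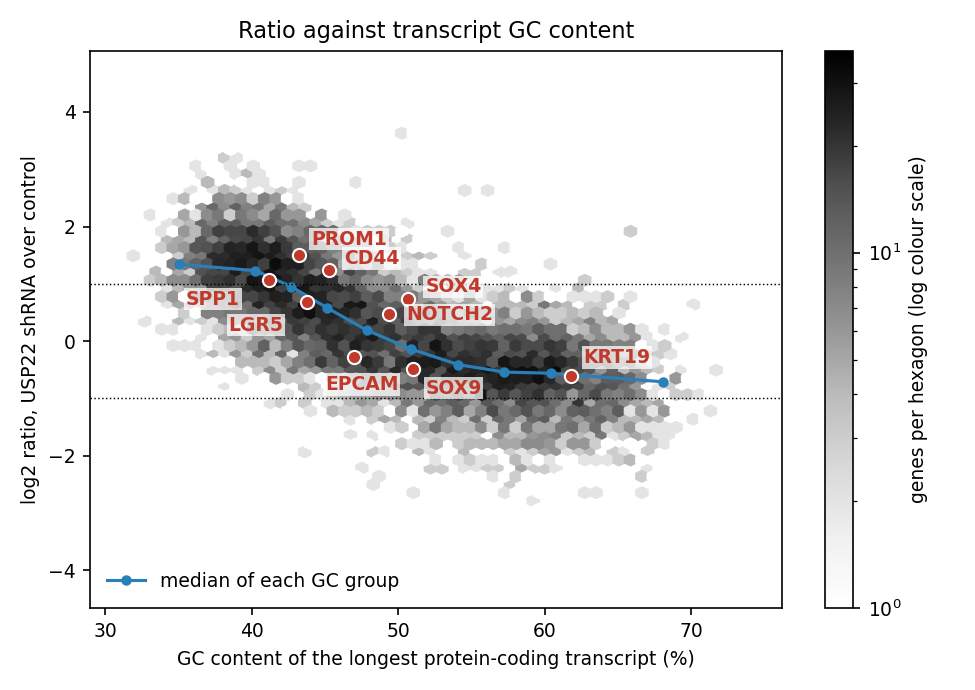
Log2 ratio of USP22 shRNA over control (vertical axis) against transcript GC content in percent for genes that average 1 FPKM or more, as hexagons shaded by the number of genes on a log scale, with the 9 markers in red and the median of each of 10 GC groups in blue. SPP1, LGR5 and KRT19 lie near the blue line, PROM1, CD44, SOX4 and NOTCH2 above it and EPCAM and SOX9 below it.

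Other markers of the same cell states were read from lists. Of 21 further biliary and hepatic progenitor genes, 14 were in the tables and 13 past the limit on low values, of which 1 was higher and 2 were lower by the 2-fold rule, beside 24.1% and 12.2% of all genes. Their median log2 ratio was -0.50. BICC1, an RNA-binding protein of tubular epithelia, was at 8.67 FPKM with USP22 shRNA and 1.51 FPKM in the control. The lowest ratios were those of KRT23, a keratin, at 0.401 FPKM with USP22 shRNA and 2.22 FPKM in the control, and of SLC4A2, an anion exchanger, at 23.0 FPKM with USP22 shRNA and 52.3 FPKM in the control. After GC correction the list median was -0.12. None was then higher by the 2-fold rule, beside 8.45% of all genes, and 1 was lower, beside 8.92%. That gene was KRT23, at -1.15. BICC1 was at 0.86 and SLC4A2 at -0.53 after correction, against 1.94 and -1.15 as deposited.

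Of 26 other liver cancer stem cell markers, 18 were in the tables and 17 past the limit. By the 2-fold rule 5 were higher and 1 was lower, and the median was 0.36. Over all genes 24.1% were higher and 12.2% lower, and counts this small are not read as different from that. LIN28B, an RNA-binding protein that blocks let-7 maturation, was at 45.5 FPKM with USP22 shRNA and 3.92 FPKM in the control. BMI1, a Polycomb subunit, was at 8.95 FPKM with USP22 shRNA and 0.850 FPKM in the control. Both transcripts are low in GC content, at 38.1% for LIN28B and 39.1% for BMI1, and with the trend removed LIN28B was at 1.94 and BMI1 at 1.16. DLK1, a membrane protein of fetal hepatoblasts, was lower, at 2.34 FPKM with USP22 shRNA and 8.16 FPKM in the control, and TERT, the telomerase catalytic subunit, was at 0.913 FPKM with USP22 shRNA and 2.15 FPKM in the control. On the GC-corrected scale 3 members were past 2-fold, each of them higher, beside 8.45% of all genes, the median was 0.34, and DLK1 was at -0.99. The higher ones were LIN28B, BMI1 and BAMBI, a decoy receptor of TGF-beta signalling, at 0.78 as deposited and 1.15 after correction. ABCG2, ALDH1A1 and IGF2BP3 were counted as higher as deposited but not after correction, where they lay at 0.67, 0.51 and 0.34. TERT was then at 0.03, against -0.72 as deposited.

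Around NOTCH2, 26 of 33 Notch pathway genes were in the tables and 22 past the limit. By the 2-fold rule 4 were higher and 2 lower, and the median was 0.07. These counts are no larger a share than the 24.1% higher and 12.2% lower over all genes. ITCH, a ubiquitin ligase that targets Notch, was at 27.3 FPKM with USP22 shRNA and 3.97 FPKM in the control, and ADAM10, the protease that makes the first ligand-induced cut of the receptor, at 6.88 FPKM with USP22 shRNA and 1.42 FPKM in the control. The glycosyltransferase LFNG was lower, at 0.954 FPKM with USP22 shRNA and 6.48 FPKM in the control, as was the coactivator MAML1, at 3.86 FPKM with USP22 shRNA and 14.0 FPKM in the control. The following 4 genes were chosen after their values were seen. NOTCH1, another receptor, was at 2.36 FPKM with USP22 shRNA and 2.58 FPKM in the control, and the ligand JAG1 at 14.9 FPKM with USP22 shRNA and 11.0 FPKM in the control. RBPJ, the DNA-binding partner of cleaved Notch, was at 7.55 FPKM with USP22 shRNA and 1.90 FPKM in the control. HES1, a transcriptional target of the pathway, was at 0.698 times its control level with USP22 shRNA, a log2 ratio of -0.50. With the GC trend removed 3 of the list were higher and 2 lower by that rule, beside 8.45% and 8.92% of all genes, and the median was 0.30. Of the 4 genes first counted as higher, ITCH was then at 1.24, and ADAM17 at 0.55, ADAM10 at 0.41 and RBPJ at 0.25 were no longer past 2-fold. The other 2 genes past it were HES4, at 0.63 as deposited and 1.63 after correction, and NUMBL, at 0.60 as deposited and 1.19 after it. LFNG at -1.28 and MAML1 at -1.16 were the lower genes on both scales.

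Around LGR5, 31 of 39 Wnt and R-spondin pathway genes were in the tables and 28 past the limit. By the 2-fold rule 6 were higher and 4 lower, and the median was 0.01. These counts are near the 24.1% higher and 12.2% lower over all genes. LGR4, the paralogue of LGR5 that also binds R-spondins, was at 31.3 FPKM with USP22 shRNA and 2.97 FPKM in the control. LGR4 was therefore more abundant than LGR5 in both libraries. TNFRSF19, a receptor, was at 5.29 FPKM with USP22 shRNA and 0.439 FPKM in the control. The lowest ratios were those of TBX3, a transcription factor, at 5.09 FPKM with USP22 shRNA and 16.3 FPKM in the control, and of the Wnt co-receptor LRP5, at 31.4 FPKM with USP22 shRNA and 75.2 FPKM in the control. With the GC trend removed 3 were higher and 1 lower, beside 8.45% and 8.92% of all genes, and the median was -0.07. LGR4 was then at 2.01, against -0.09 for LGR5, and TNFRSF19 was at 1.25. The other gene counted as higher was AXIN2, a scaffold of the complex that degrades beta-catenin, at 0.78 as deposited and 1.09 after correction. FZD6, LRP6, GSK3B and CSNK1A1 were counted as higher as deposited but not after correction, where they lay at -0.19, 0.14, 0.35 and -0.06. TBX3 was at -1.25 and LRP5 at -0.58.

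Of 22 receptors and partners of osteopontin and hyaluronan, the ligands tied to SPP1 and CD44, 10 were in the tables and 9 past the limit. By the 2-fold rule 5 of the 9 were higher, beside 24.1% of all genes, none was lower, beside 12.2%, and the median was 1.63. The integrin subunit ITGAV, part of several osteopontin receptors, was at 116 FPKM with USP22 shRNA and 6.60 FPKM in the control. Its partner ITGB1 was at 69.8 FPKM with USP22 shRNA and 15.9 FPKM in the control. Another partner, ITGB5, was at 27.5 FPKM with USP22 shRNA and 26.9 FPKM in the control, and the membrane protease MMP14 had a log2 ratio of -0.02. On the GC-corrected scale 3 were higher by that rule, beside 8.45% of all genes, and none was lower. They were ITGAV and 2 others, THBS1 at 1.12 and EZR, a cytoskeletal linker of CD44, at 1.01, of which EZR was at 0.87 as deposited. The median was then 0.61, with ITGAV at 2.65, ITGB1 at 0.86, ITGB5 at 0.43 and MMP14 at 0.55. Earlier results on these libraries had already shown ITGAV among the highest ratios.

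Of 14 partners and proteases of EPCAM, 13 were in the tables and 12 past the limit. By the 2-fold rule 1 was higher and none was lower, beside 24.1% and 12.2% of all genes, and the median was -0.02. ADAM17, a sheddase that cuts EPCAM, was at 13.3 FPKM with USP22 shRNA and 3.92 FPKM in the control, and the tight junction protein CLDN1 at 86.3 FPKM with USP22 shRNA and 50.9 FPKM in the control. The tetraspanin CD9 was at 8.80 FPKM with USP22 shRNA and 17.8 FPKM in the control. CLDN7, a direct partner of EPCAM, was at 0.800 FPKM with USP22 shRNA and 1.93 FPKM in the control. Once the GC trend was removed 1 was higher and 2 were lower by that rule, beside 8.45% and 8.92% of all genes, and the median was -0.18. The genes past it were not those counted before: SPINT1, a protease inhibitor, was at 1.05, and the tetraspanins TSPAN8 and CD9 were at -1.22 and -1.16. ADAM17 was then at 0.55, CLDN7 at -0.12, and CLDN1 was at -0.33, against 0.75 as deposited. The SOX family outside SOX4 and SOX9 had 5 of 14 genes in the tables and 3 past the limit. Of the 3, 1 was higher by the 2-fold rule, beside 24.1% of all genes, and none was lower, beside 12.2%. The higher gene was SOX5, at 2.89 FPKM with USP22 shRNA and 0.464 FPKM in the control. Its log2 ratio was 1.41, or 0.14 after GC correction. SOX12 and SOX13 had log2 ratios of -0.84 and -0.80 as deposited, and of -0.21 and -0.24 after GC correction. The list median was -0.80 as deposited and -0.21 after correction, when no gene of the list was past 2-fold.

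**Figure D4:**
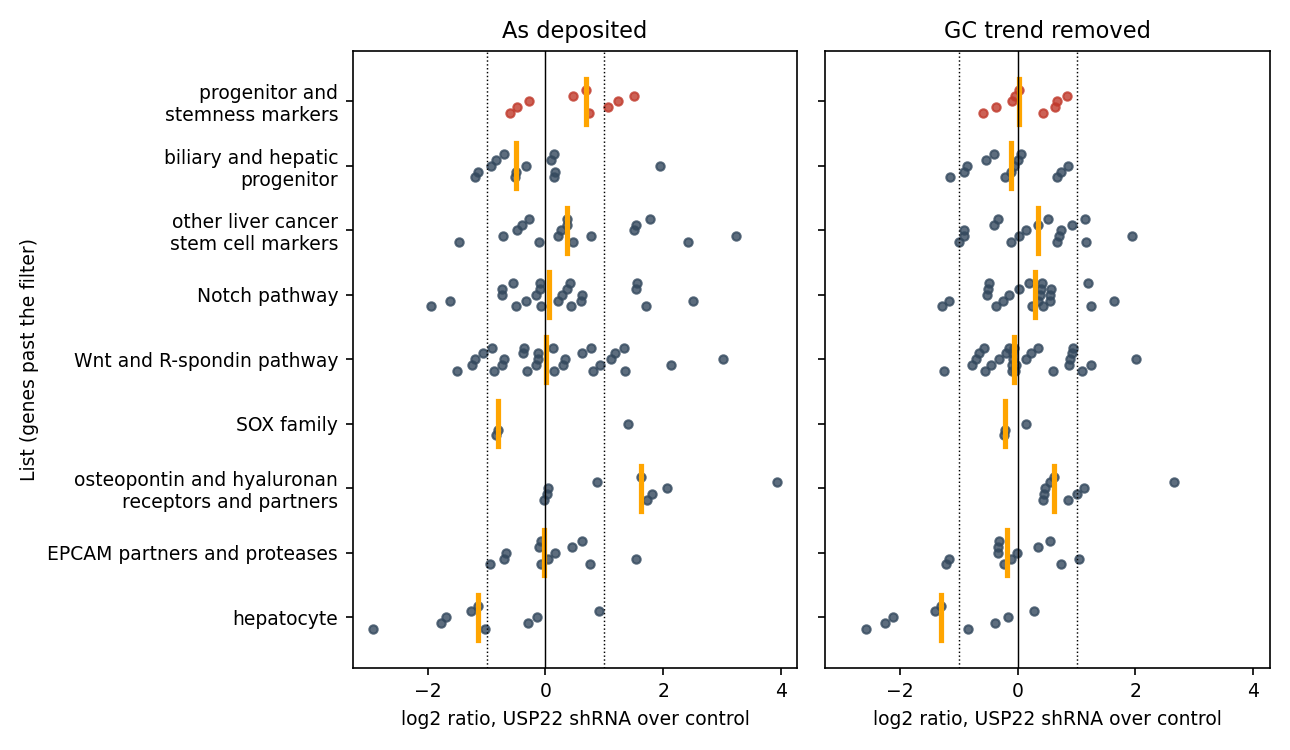
Log2 ratio of USP22 shRNA over control (horizontal axis) of the genes past the limit on low values in each list, as deposited on the left and with the GC trend removed on the right, with 1 point per gene, orange bars at list medians and dotted lines at 2-fold. The 9 markers have a median of 0.69 as deposited and 0.03 with the trend removed, while hepatocyte genes have a median of -1.14 as deposited and -1.31 with it removed.

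Most markers of mature hepatocytes had lower values with USP22 shRNA. Of 9 hepatocyte markers past the limit 6 were lower by the 2-fold rule, beside 12.2% of all genes, none was higher, beside 24.1%, and their median was -1.14. On the GC-corrected scale 5 were lower, beside 8.92% of all genes, and the median was -1.31. These 5 were not all among the 6 counted before. ALB, at -0.30 as deposited, was at -1.40 after correction. APOA1 and HNF4A, at -1.03 and -1.14 as deposited, were then at -0.38 and -0.85 and no longer past 2-fold. AHSG (fetuin-A) was at 69.3 FPKM with USP22 shRNA and 535 FPKM in the control, and TTR (transthyretin) at 55.8 FPKM with USP22 shRNA and 193 FPKM in the control. The highest ratios of that list were those of FGB, a fibrinogen chain, at 208 FPKM with USP22 shRNA and 110 FPKM in the control, and of APOA2, an apolipoprotein, at 290 FPKM with USP22 shRNA and 319 FPKM in the control. Both turned direction with the GC trend removed, FGB being at 0.91 as deposited and -0.17 after correction, and APOA2 at -0.14 as deposited and 0.27 after it. Of 11 markers of stellate cells and fibroblasts, 8 were in the tables with a summed level of 259 FPKM with USP22 shRNA and 69.6 FPKM in the control. Past the limit were 5, with 3 higher by the 2-fold rule, beside 24.1% of all genes, among them COL1A1, a collagen chain, at 104 FPKM with USP22 shRNA and 11.1 FPKM in the control, and LUM, a matrix proteoglycan, at 8.95 FPKM with USP22 shRNA and 1.37 FPKM in the control. COL1A2 had a log2 ratio of 0.26 and PDGFRB one of -0.21. With the GC trend removed 2 of the 5 were higher, beside 8.45% of all genes, and the list median was 0.72, against 1.57 as deposited. COL1A1 was then at 3.72, while LUM, at 2.07 as deposited, was at 0.72, and PDGFRB was at 0.33. The other gene past 2-fold was VIM, at 1.57 as deposited and 1.96 after correction. The smooth muscle actin gene ACTA2 was listed at 0 in both libraries. Of the blood cell markers in the tables, LYZ was at 93.6 FPKM with USP22 shRNA and 386 FPKM in the control, CD68 at 0.416 FPKM with USP22 shRNA and 3.88 FPKM in the control, and CD14 at 0.693 FPKM with USP22 shRNA and 1.40 FPKM in the control. With the GC trend removed LYZ was at -3.11, CD68 at -1.33 and CD14 at 0.04. The part of these other cell type markers in the values of the 9 genes was not tested.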

How the data were processed

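Per the labels' protocols, total RNA of Huh7 cells was extracted with TRIZOL, treated with DNase and made into messenger RNA libraries. The submitters' processing notes list the tools StringTie 1.3.0 and HISAT2 2.0.4 and the build GRCh37, with no role for each. The authors deposited 1 value per gene and library, read here as FPKM. The header names no unit, and a TPM would differ by 1 constant per library. How the 11976 genes were chosen, and the annotation, are not stated in the labels.

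From the deposited FPKM, log2 ratios of USP22 shRNA over control were computed with a pseudocount of 1, in Python 3.11.15 with pandas 2.3.3. Genes averaging 1 FPKM or more were counted as higher or lower where the log2 ratio reached 1 in size, without a test. A gene below 1 FPKM in 1 library could pass through the other library alone. As deposited, such genes in the lists were BMI1, TNFRSF19, FZD6 and SOX5 among the higher and KRT23, LFNG and CD68 among the lower. Of the genes newly higher with the GC trend removed, NUMBL and AXIN2 were such genes. For the 7 symbols on more than 1 row, the row with the higher mean was used. GENCODE 29 gave the GC content and the length of each gene's longest protein-coding transcript for 11836 genes, joined on the unversioned Ensembl identifier. The GC trend was removed as the residual from a lowess curve (30% span, statsmodels 0.14.6), which centres ratios at 0 at each GC content. The procedure was run on simulated data with a straight-line GC trend and changed genes drawn without regard to GC. That run cannot show whether true differences linked to GC content are removed as well.

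All 10 markers and USP22 were described, with up to 2 genes at each end of every list; 1 further gene that this rule names is not reported here. Genes named because the GC correction changed their count, and VIM, were chosen after their values were seen. The markers and lists were chosen with earlier results of these data known. The alternatives were other pseudocounts, scalings, limits on low values and fold sizes, and removal of GC or of GC and length trends. The plain ratio without a pseudocount was added after the data were seen.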

Additional observations from a re-analysis of the deposited data

How the results depend on the processing

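The count of 3 markers at least 2-fold higher became 1 with a pseudocount of 5 and 1 with a limit of 5 FPKM on the mean, which keeps 6 of the markers. It became 5 with a 1.5-fold rule, 0 with the GC trend removed and 0 with GC and length trends removed. It was 4 with a pseudocount of 0.1 or with plain ratios, by addition of LGR5, 2 with median centring or TMM scaling (trimming 30% of the ratios and 5% of the levels), which left SPP1 at 0.97 and 0.89, and 3 with values rescaled without mitochondrially encoded genes or with no limit on low values. No marker was at least 2-fold lower under these alternatives, and 1, KRT19, was lower with the 1.5-fold rule. The median log2 ratio of 0.69 was 0.76 with a pseudocount of 0.1 and 0.29 with 5, 0.60 with median centring, 0.51 with TMM, 0.80 without mitochondrially encoded genes, 0.10 with the limit of 5 FPKM, 0.03 with the GC trend removed, 0.13 with GC and length trends removed and 0.76 with plain ratios. The log2 ratio of SPP1, 1.07 as deposited, was -0.04 with the GC trend removed. Over the genes past the limit on low values, the median shift of a log2 ratio was -0.10 with median centring and -0.21 with TMM. It was 0.12 without mitochondrially encoded genes.

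Over all genes, the 2454 at least 2-fold higher became 888 with a pseudocount of 5, 1184 with the limit of 5 FPKM, 856 with the GC trend removed and 828 with GC and length trends removed, and the 1247 lower became 534 with a pseudocount of 5 and 2464 with the 1.5-fold rule. Over the 10 lists with a gene past the limit, counts of higher genes moved beyond 1.5 times upward in 4 and downward in 17 of 110 comparisons with an alternative, and counts of lower genes upward in 19 and downward in 12 of 110. The cause was not tested. Depth is unknown, so no counting error can be set on CD44, LGR5 and SPP1, at 0.813 to 3.51 FPKM. No paired analysis was possible because each group has 1 library.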
